A study of Gallus gallus with 3 samples.

Results

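ATF4, CHAC1, ASNS and XBP1 are 4 genes of the cellular response to amino acid shortage and protein stress, and their mRNA levels were examined in chicken breast muscle. They are 4 of 10663 genes that could be paired with a name in the deposited tables, and were found by matching RefSeq accessions, without their version, to these symbols in NCBI's chicken gene table of assembly GRCg7b. The tissue came from Arbor Acres broilers (Gallus gallus bred for meat), male and 42 days of age, all kept at 50 ± 3 ppm of atmospheric ammonia. There were 3 mRNA libraries in a single group, numbered here as in their titles. Birds under other ammonia levels were not analysed here, and nothing below compares exposures. Whether each library came from its own bird is not stated in the labels, and each SD describes the spread between 3 libraries, which may be technical.

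ATF4 is a transcription factor of the integrated stress response. Kinases that sense uncharged tRNA, unfolded protein, double-stranded RNA or heme shortage phosphorylate the initiation factor eIF2, which lowers general translation while raising translation of the ATF4 mRNA. In mammals ATF4 protein then induces genes of amino acid synthesis and uptake, tRNA charging and redox balance. ASNS, which makes asparagine from aspartate and glutamine, and CHAC1, which cleaves glutathione inside the cell, are classical targets. XBP1 encodes a transcription factor of the neighbouring unfolded protein response, whose mRNA is spliced by the sensor kinase IRE1 in the endoplasmic reticulum. Because ATF4 is controlled largely at translation, an mRNA level does not measure how much ATF4 protein was present.

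The 4 genes behaved unlike each other across the libraries. ATF4 was high and nearly even, CHAC1 was far higher in library 1 than in the other two, ASNS was lower in library 1, and XBP1 differed little. The members were chosen by their levels in these same 3 libraries, so levels and spread are given as a description with no test. Values are FPKM, a level per length of transcript scaled to library size, and this unit was inferred from the tables, which do not name it. Each gene had 1 transcript row in the tables, although the gene table lists 2 transcripts for ATF4 and 7 for ASNS. Rows that carry other names were not used, and with 1 XBP1 row the spliced and unspliced forms could not be separated.

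ATF4 was listed at 480 FPKM in library 1, 445 in library 2 and 468 in library 3, with a mean of 464 ± 17.8 FPKM (SD, n = 3). The highest library exceeded the lowest by 1.08-fold, and the SD was 3.84% of the mean. By level ATF4 ranked 129th, 144th and 134th of 10663 genes in libraries 1 to 3, and 135th by its mean.

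CHAC1 was listed at 61.8 FPKM in library 1, 3.73 in library 2 and 4.64 in library 3. Library 1 alone was high, at 16.6-fold the level of library 2 and 13.3-fold that of library 3, while library 3 exceeded library 2 by 1.24-fold. The mean of 23.4 ± 33.2 FPKM (SD, n = 3) therefore lies at the level of no library, and without library 1 it was 4.18 ± 0.641 FPKM. By level the gene ranked 747th of 10663 in library 1 but 4789th and 4316th in libraries 2 and 3, and such ranks within a library do not depend on scaling between libraries.

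ASNS took the opposite course, at 5.33 FPKM in library 1, 13.8 in library 2 and 13.0 in library 3. Library 1 alone was low: the level was 2.58-fold higher in library 2 and 2.44-fold higher in library 3, and these differed from each other by 1.06-fold. The mean was 10.7 ± 4.66 FPKM (SD, n = 3), and 13.4 ± 0.556 FPKM without library 1. Ranked within libraries, ASNS was 4443rd of 10663 genes in library 1, 2454th in library 2 and 2528th in library 3.

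XBP1 was listed at 33.3 FPKM in library 1, 37.7 in library 2 and 46.1 in library 3, with a mean of 39.0 ± 6.51 FPKM (SD, n = 3). It was lowest in library 1 and highest in library 3, by 1.38-fold.

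**Figure D1:**
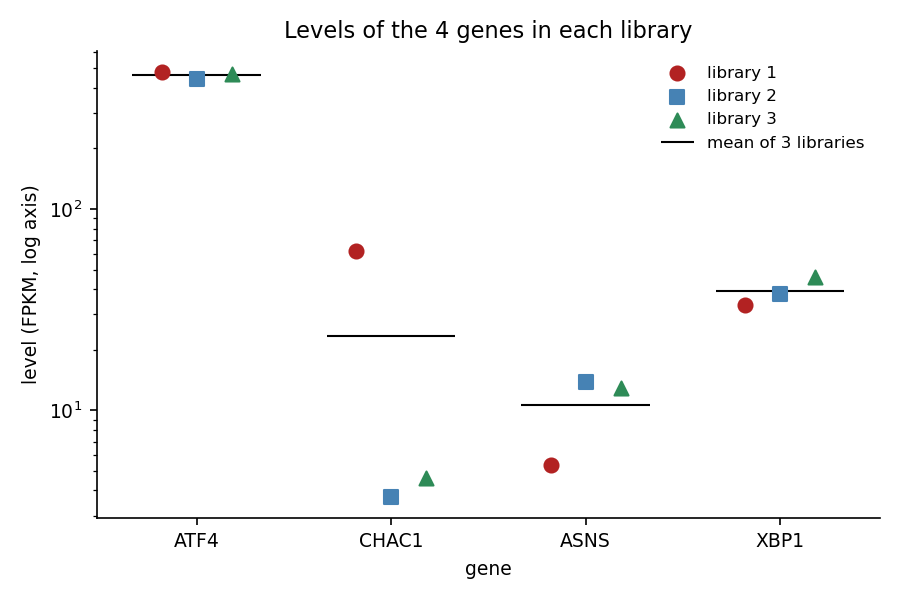
Level of ATF4, CHAC1, ASNS and XBP1 in FPKM on a log axis, with 1 point per library and a line at the mean of the 3 libraries. The ATF4 points lie between 445 and 480 FPKM, while CHAC1 stands at 61.8 FPKM in library 1 against 3.73 and 4.64 FPKM in libraries 2 and 3, and ASNS is lowest in library 1.

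By mean level the order was ATF4, XBP1, CHAC1, ASNS. ATF4 stood above the other members in every library by more than any of their spreads. XBP1 and CHAC1, and CHAC1 and ASNS, do not differ beyond their spread, since CHAC1 crossed both. In library 1 CHAC1 exceeded XBP1 by 1.85-fold and ASNS by 11.6-fold. In libraries 2 and 3 XBP1 exceeded CHAC1 by 10.1-fold and 9.95-fold, and ASNS exceeded CHAC1 by 3.69-fold and 2.80-fold. XBP1 stood above ASNS in every library, by 6.25-fold, 2.74-fold and 3.55-fold in libraries 1 to 3.

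Setting the other genes against ATF4 within each library removes the scaling between libraries. The level of CHAC1 was 12.9% of that of ATF4 in library 1, against 0.838% in library 2 and 0.990% in library 3. The log2 ratio averaged -5.50 ± 2.21 (SD, n = 3), and -6.78 ± 0.17 without library 1. For ASNS the share was 1.11% of ATF4 in library 1, 3.10% in library 2 and 2.77% in library 3, with a mean log2 ratio of -5.56 ± 0.81. XBP1 stood at 6.94%, 8.48% and 9.85% of ATF4 in libraries 1 to 3, a mean log2 ratio of -3.58 ± 0.25. The mean ratios of CHAC1 and ASNS to ATF4 were thus nearly equal although their libraries lay in opposite order.

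**Figure D2:**
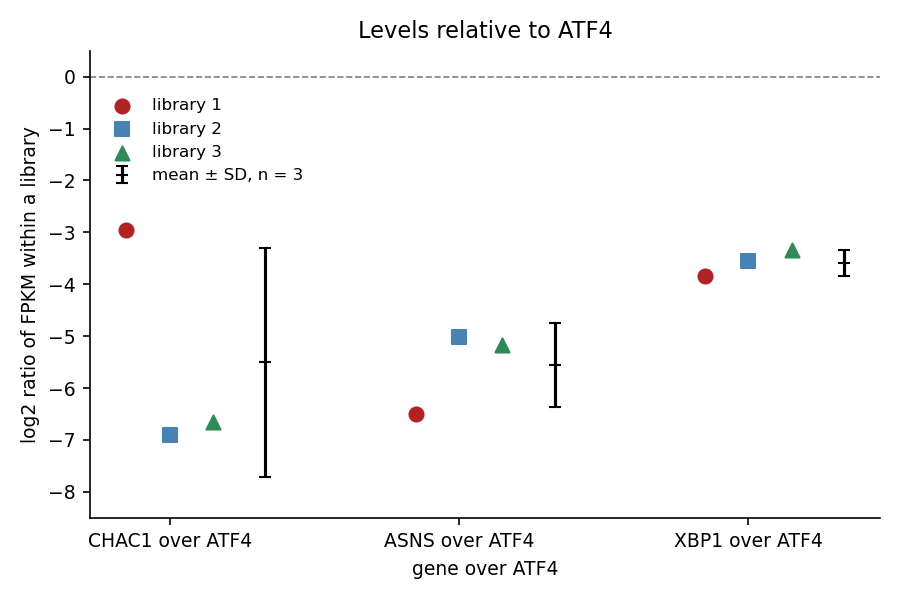
The log2 ratio of CHAC1, ASNS and XBP1 to ATF4 within each library, 1 point per library, with the mean and SD of 3 libraries in black; 0 marks equal levels. CHAC1 is nearest to ATF4 in library 1 (-2.96) and farthest in libraries 2 and 3 (-6.90 and -6.66), whereas ASNS is farthest in library 1 (-6.49).

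The spread of the 4 genes was placed among the 6595 genes that reached 1 FPKM in 2 or more libraries, as the highest minus the lowest library on the log2(FPKM + 1) scale, which understates the differences of low genes. All 4 members passed this filter. CHAC1 had a range of 3.73, the 10th largest of 6595. The gap between library 1 and the higher of the other two was 3.48, and 1 gene, PTGDS, had a larger one. ASNS had a range of 1.22, larger than 91.9% of the genes, XBP1 0.46, larger than 46.2%, and ATF4 0.11, larger than 3.79%. For ASNS, library 1 lay 1.14 below the lower of the other two, and 80 of the 6595 genes lay farther below. In all, 14.0% of genes had a range above 1, which is 2-fold on this scale, and CHAC1 and ASNS, 2 of the 4 members, did. The choice of members used these values, so nothing is read from that count. With median-of-ratios scaling 13.2% of genes had such a range, and the same 2 members did.

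**Figure D3:**
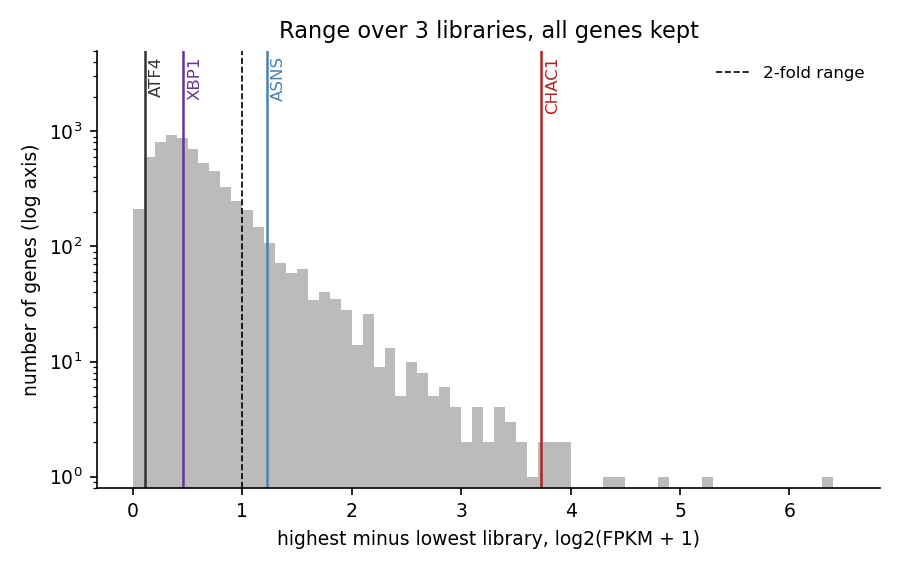
Number of genes (log axis) by the range over the 3 libraries in log2(FPKM + 1), for the 6595 genes kept, with the 4 members as vertical lines and the 2-fold range dashed. ATF4 at 0.11 lies at the low end, XBP1 at 0.46 near the middle, ASNS at 1.22 past the dashed line and CHAC1 at 3.73 in the far tail.

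Some facts of the libraries bear on these values. The tables give no read depth and thus no counting error. Levels of library 1 were generally a little higher: the log2 factors of median-of-ratios scaling were 0.13, -0.02 and -0.08 for libraries 1 to 3, and 51.1% of genes were highest in library 1 as deposited. After that scaling CHAC1 still ranged over 3.59 and ASNS over 1.35, both with library 1 apart on the same side. XBP1 ranged over 0.66 with the same order, and ATF4 over 0.17, with library 3 now highest and library 1 lowest, so the order of the libraries for ATF4 depends on the scaling. Across genes, Pearson's r of log2 levels was 0.973 between libraries 2 and 3, and 0.951 for each of them with library 1; genes are not independent replicates.

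Of 12 markers of the labelled tissue, 6 were matched, and most of them were very high. MYL1 and TNNT3, of the fast contractile apparatus, reached 12654 to 17786 and 11557 to 18325 FPKM. The 6 genes together held 8.81%, 10.9% and 11.1% of the summed value in libraries 1 to 3. As deposited, 3 were lowest in library 1 and 3 in library 3, against 1701 and 2599 of 6595 over all genes. With median-of-ratios scaling 5 were lowest in library 1 and 1 in library 3, against 2484 and 1877 of 6593. PVALB, the calcium buffer parvalbumin, singled out after its values were seen, was low, at 1.28 to 2.37 FPKM.

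Markers of other cells and of recent stimulation also differed between libraries, and a bulk level cannot tell fewer cells of a type from less RNA per cell. Immediate early genes, which are switched on soon after a stimulus, summed to 467, 216 and 142 FPKM in libraries 1 to 3 over 9 matched of 15 listed genes, with 7 of the 8 genes kept highest in library 1, against 51.1% of all genes. Adipocyte genes (8 of 8 matched) summed to 292, 179 and 110 FPKM, of which FABP4 made up 113, 71.3 and 15.5 FPKM. Of the 8 kept, 6 were highest in library 1, 1 in library 2 and 1 in library 3. CEBPA, 1 of those 6, and PPARG passed the filter through libraries 1 and 2, so neither could be highest in library 3. PPARG, which falls outside the rule for named genes, stood at 1.59, 1.65 and 0.721 FPKM. Endothelial genes (6 of 8) summed to 92.1, 52.5 and 60.1 FPKM, of which PLVAP made up 57.0, 30.1 and 30.8 FPKM. Of the 6 kept, 4 were highest in library 1 and 2 in library 3. Both sets of counts held with median-of-ratios scaling. Over all genes 51.1% as deposited and 36.8% as scaled were highest in library 1. Macrophage genes (9 of 12) summed to 411, 356 and 173 FPKM, of which CD74 made up 325, 270 and 136 FPKM. Each of the 8 genes kept was lowest in library 3, against 2599 of 6595 over all genes. The same held with median-of-ratios scaling, against 1877 of 6593. For MARCO, which falls outside the rule for named genes, the filter fixed this place. At 2.32, 1.11 and 0.579 FPKM, MARCO passed it through libraries 1 and 2. Of the 8 genes, 4 were highest in library 1 and 4 in library 2. Fibroblast genes (7 of 8) had sums of 403, 879 and 656 FPKM, lowest in library 1. Of the 7 genes kept, 5 were lowest in library 1, 1 in library 2 and 1 in library 3. With median-of-ratios scaling 5 were again lowest in library 1. Over all genes 25.8% as deposited and 37.7% as scaled were lowest there. Red blood cell genes (6 of 10) summed to 72.0, 410.4 and 292 FPKM, of which CA2, a carbonic anhydrase, made up 45.7, 355 and 189 FPKM. The globin HBBA was highest in library 3, at 24.3, 54.1 and 98.7 FPKM, and TAL1, a blood cell transcription factor, was highest in library 1, at 1.94, 1.59 and 1.43 FPKM. The globins HBAD and HBZ were listed at or near 0 in every library. HBA1, also a globin, was near 0 in libraries 1 and 2 and at 3.10 FPKM in library 3. The filter kept 3 of the 6 matched genes, and HBA1, HBAD and HBZ did not pass it. TAL1, HBA1, HBAD and HBZ fall outside the rule for named genes. Whether any stimulus differed between the libraries is not known from the labels. The part of these cells, or of any stimulus, in the values of CHAC1 and ASNS was not tested.

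Among the factors that control translation of ATF4, none of the 15 matched differed by more than 2-fold, though most varied more than the ATF4 mRNA. GCN1, PPP1R15A and PPP1CA had no matched transcript and were not analysed here. All 15 matched genes of 18 listed were kept, and 0 of 15 had a range above 1, against 14.0% of all genes. Their median range was 0.28, against 0.49 over all genes and 0.11 for ATF4. The median deviations from the mean of the 3 libraries were 0.08, 0.01 and -0.01 in libraries 1 to 3, against 0.10, -0.03 and -0.06 over all genes kept. The 4 eIF2 kinase genes, which the rule for named genes does not take, were low, with EIF2AK1 (the heme-regulated kinase) at 6.59, 7.06 and 7.46 FPKM. EIF2AK4, which senses uncharged tRNA and is also called GCN2, stood at 4.91, 4.95 and 4.46 FPKM, and EIF2AK3, the endoplasmic reticulum kinase PERK, at 2.40, 1.87 and 1.92 FPKM.

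The subunits of eIF2 were more abundant. EIF2S1, the alpha subunit, which the kinases phosphorylate, stood at 60.2, 51.1 and 48.2 FPKM in libraries 1 to 3. It falls outside the rule for named genes. EIF2S3, the gamma subunit, had 303, 179 and 165 FPKM in libraries 1 to 3, the widest range of the list at 0.87. EIF2S2, the beta subunit, stood at 161, 131 and 164 FPKM. PPP1CB, a catalytic subunit of protein phosphatase 1, the enzyme that dephosphorylates eIF2 with a targeting partner, was lowest in library 1, at 64.0, 90.9 and 107 FPKM.

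Genes that ATF4 is known to induce, in mammals for the most part, were described from 4 lists beside CHAC1 and ASNS. They held 45 genes, of which 22 were matched and 19 were kept. A range above 1 was found in 6 of the 19 genes (31.6%), against 14.0% of all genes. The lists were chosen with earlier results of these data known, so nothing is read from the difference between these shares. Of the 6, 4 were highest in library 1 (7.70% of all genes had such a range with library 1 highest) and 2 were lowest there (3.93% of all genes). Those 2, PHGDH and SLC7A1, passed the filter only through libraries 2 and 3, where they were higher, so nothing is read from their count. With median-of-ratios scaling the 19 genes gave the same counts of 4 and 2, against 5.14% and 5.79% of all genes. Ignoring size, 8 of 19 were highest and 8 of 19 lowest in library 1, against 51.1% and 25.8% of all genes. With median-of-ratios scaling 7 were highest and 10 lowest, against 36.8% and 37.7% of all genes. Both counts of the lowest hold PHGDH and SLC7A1, whose place there the filter fixed, so nothing is read from them either. The median range was 0.66, against 0.49 over all genes. The count of 6 was 2 without library 1, 2 without library 2 and 2 of 12 genes with curated transcripts only.

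The enzymes of amino acid and one-carbon metabolism went in both directions. ALDH1L2, a mitochondrial folate enzyme, had 46.6, 14.6 and 14.6 FPKM in libraries 1 to 3, high in library 1 alone as for CHAC1. MTHFD1L, which makes formate in mitochondria, stood at 10.5, 1.91 and 6.07 FPKM, highest in library 1 and lowest in library 2. These 2 genes had ranges of 1.61 and 1.99.

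The serine synthesis enzymes were lowest in library 1, as deposited and with median-of-ratios scaling. Over all genes 25.8% as deposited and 37.7% as scaled were lowest there. Not all had library 1 alone low, as ASNS did. PHGDH, the first enzyme of the pathway, was listed at 0.433, 1.40 and 2.49 FPKM, and it passed the filter through libraries 2 and 3. PSAT1, the second enzyme, stood at 11.3, 11.6 and 14.8 FPKM, nearly level in libraries 1 and 2. PSPH, the last, stood at 98.1, 135 and 142 FPKM. Of these 3 genes PHGDH alone had a range above 1, at 1.28, and the others had 0.37 and 0.53.

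None of the 3 remaining genes kept from that list had a range above 1. MTHFD2, a mitochondrial folate dehydrogenase, was lowest in library 1, at 58.6, 72.8 and 69.4 FPKM. CTH, which makes cysteine from cystathionine, was lowest in library 3, at 32.9, 34.8 and 21.6 FPKM, and PCK2, the mitochondrial form of phosphoenolpyruvate carboxykinase, stood at 3.07, 2.49 and 2.27 FPKM. CBS, which makes cystathionine, was matched but did not pass the filter, at 0.34 to 0.81 FPKM.

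Amino acid transporters were mostly low, and none of the 3 kept was highest in library 1, as deposited or with median-of-ratios scaling. Over all genes 51.1% as deposited and 36.8% as scaled were highest there. SLC7A5, the light chain of a carrier of large neutral amino acids, had 41.6, 34.9 and 66.3 FPKM in libraries 1 to 3. SLC7A1, a carrier of arginine and lysine, stood at 0.989, 1.76 and 4.73 FPKM, with a range of 1.53, and passed the filter through libraries 2 and 3. SLC6A9, a glycine transporter, stood at 1.07, 1.46 and 1.06 FPKM. SLC7A11, which imports cystine, stayed at or below 0.37 FPKM and SLC1A4 at or below 1.06 FPKM in every library, so neither passed the filter.

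Of the tRNA synthetases, 3 of 12 were matched, and each was lowest in library 1, with no range above 1. The order held with median-of-ratios scaling, and 25.8% of all genes as deposited and 37.7% as scaled were lowest there. AARS1, for alanine, was listed at 52.3, 63.4 and 65.0 FPKM. CARS, the table's name for the cysteine enzyme, stood at 15.4, 23.5 and 21.8 FPKM, and SARS1, for serine, at 34.7, 49.8 and 37.1 FPKM.

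The 5 kept genes of the remaining stress outputs were each highest in library 1, or 4 of 5 with median-of-ratios scaling, when EIF4EBP1 was highest in library 3. Over all genes 51.1% as deposited and 36.8% as scaled were highest in library 1. CCPG1, a receptor for autophagy of the endoplasmic reticulum, was listed at 66.4, 22.2 and 27.3 FPKM, and STC2, the secreted glycoprotein stanniocalcin 2, at 5.38, 1.82 and 2.46 FPKM. Their ranges were 1.54 and 1.18. VEGFA, an angiogenic growth factor, stood at 10.2, 4.88 and 7.64 FPKM and VLDLR, a lipoprotein receptor, at 65.5, 35.1 and 52.6 FPKM, with ranges of 0.93 and 0.88. EIF4EBP1, an inhibitor of cap-dependent translation, was as even as ATF4, at 570.1, 532 and 539 FPKM.

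The matched partners of ATF4 among the basic leucine zipper factors split into even and uneven genes. CEBPB, which pairs with ATF4 and also serves inflammatory signalling, had 43.7, 10.9 and 6.41 FPKM in libraries 1 to 3, a range of 2.59. JDP2, a repressor, stood at 19.6, 8.52 and 6.44 FPKM. CEBPA, an adipocyte and myeloid factor also in the adipocyte list, stood at 2.77, 1.21 and 0.293 FPKM, and passed the filter through libraries 1 and 2. These 3 were highest in library 1, as were 7 of the 8 kept immediate early genes, against 51.1% of all genes. Among the latter, BTG2 stood at 205, 84.1 and 72.4 FPKM. The same 3 factors were lowest in library 3, as were all 8 immediate early genes kept, against 2599 of 6595 over all genes. The share of all genes with both traits was not counted, so nothing is read from this likeness.

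The other 2 of the 5 kept factors were even. CEBPG, a ubiquitous partner of ATF4, was listed at 34.4, 28.9 and 33.3 FPKM, and NFE2L2, a regulator of antioxidant genes, at 35.4, 32.8 and 29.8 FPKM. As deposited, each of the 5 was highest in library 1; with median-of-ratios scaling 3 of 5 were. The shares of all genes were 51.1% and 36.8%. ATF3, ATF5, DDIT3 and TRIB3 had no matched transcript and were not analysed here.

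**Figure D4:**
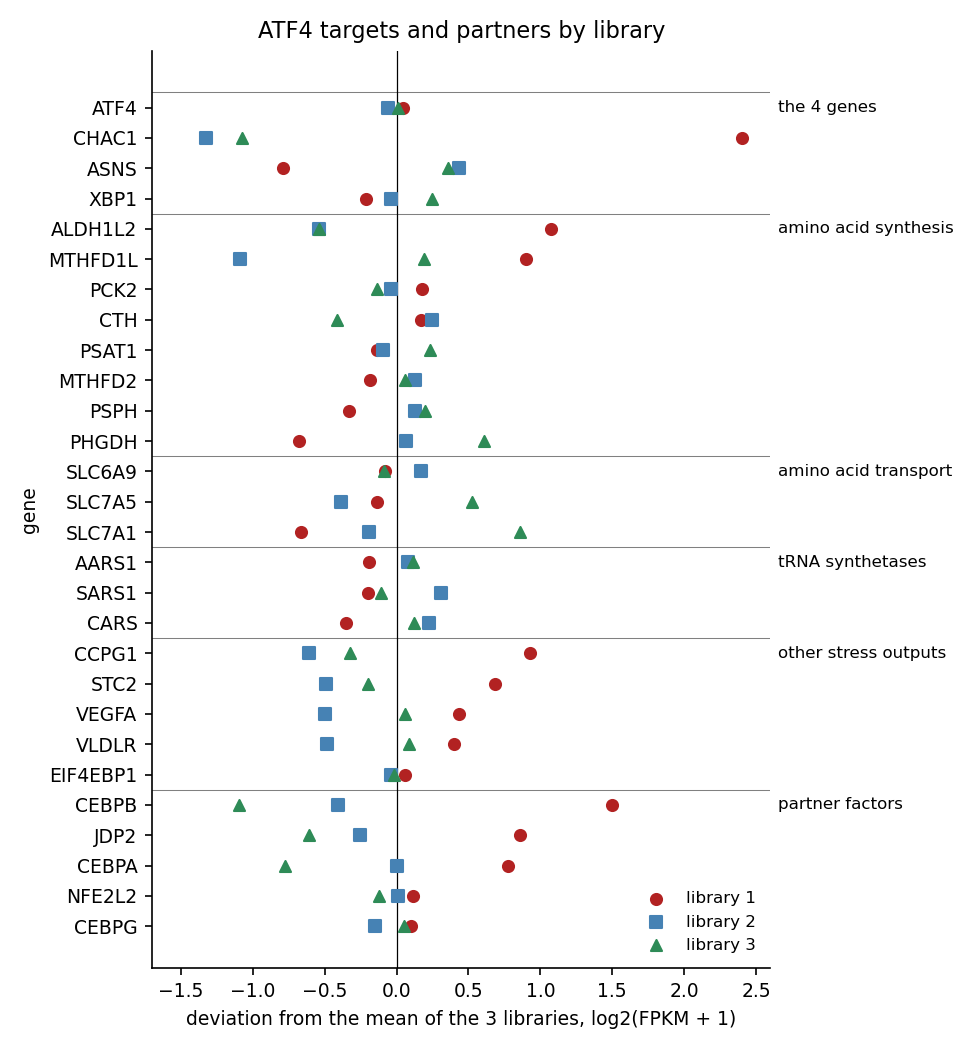
Deviation of each library from the mean of the 3 libraries in log2(FPKM + 1), for the 4 members, the 19 kept genes of the ATF4 target lists and the 5 kept partner factors; each row is a gene and each point a library. Library 1 lies to the right for CHAC1, ALDH1L2, CCPG1 and CEBPB and to the left for ASNS, PHGDH, SLC7A1 and CARS, while ATF4 and EIF4EBP1 stay near 0.

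Around CHAC1, the other genes of glutathione turnover did not share its size. CHAC2, its paralogue, which the rule for named genes does not take, stood at 0.818, 1.11 and 1.88 FPKM in libraries 1 to 3. It was lowest in library 1, a place fixed by the filter, which it passed through libraries 2 and 3. GCLM, a subunit of the enzyme of the first step of glutathione synthesis, was also lowest in library 1, at 14.6, 16.7 and 19.3 FPKM. LAP3 and ANPEP, peptidases that can act on products of glutathione breakdown, were highest in library 1, at 12.2, 6.02 and 9.32 FPKM and at 12.5, 7.41 and 5.61 FPKM. Of 8 genes kept, 2 had a range above 1, against 14.0% of all genes: ANPEP at 1.03, and GSS (glutathione synthetase), also outside the rule for named genes, at 1.06 with its highest level in library 2. After median-of-ratios scaling ANPEP ranged over 0.85.

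Around ASNS, genes that exchange nitrogen between asparagine, aspartate and glutamine gave 1 range above 1 among 5 genes kept, against 14.0% of all genes. GLUL, which makes the glutamine that ASNS uses, was high in library 1, at 108, 31.1 and 23.4 FPKM, opposite to ASNS. The aspartate aminotransferases GOT2 and GOT1, which make aspartate, were lowest in library 1 and highest in library 3, at 227, 250 and 330 FPKM and at 102, 107 and 127 FPKM. ASNSD1, which carries an asparagine synthetase domain, was listed at 13.3, 7.67 and 11.7 FPKM.

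The unfolded protein response genes, like XBP1, mostly stayed within a 2-fold range. Of 33 listed genes 25 were matched and 24 kept, and 1 of 24 had a range above 1, against 14.0% of all genes. The median range was 0.39, against 0.49 over all genes. That gene was SEC61A1, of the translocation channel, singled out with its values in view, at 4.99, 1.98 and 2.96 FPKM, and after median-of-ratios scaling it ranged over 0.89. HSPA5, the chaperone BiP, followed the order of XBP1, at 68.7, 82.3 and 116 FPKM in libraries 1 to 3. As deposited, library 1 was the lowest for 12 of 24 genes and library 3 the highest for 12 of 24; with median-of-ratios scaling each held for 14. Over all genes these shares were 25.8% and 22.6% as deposited, and 37.7% and 33.7% with that scaling. SEC24D, outside the rule for named genes, is among those lowest in library 1 in both counts. At 0.641, 1.81 and 1.75 FPKM it passed the filter through libraries 2 and 3, which fixed its place. SSR2, a subunit of the translocon-associated complex, was highest in library 1, at 89.0, 71.3 and 76.0 FPKM, and SEL1L, an adaptor of degradation from the endoplasmic reticulum, was lowest in library 2, at 12.2, 8.33 and 14.4 FPKM.

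**Figure D5:**
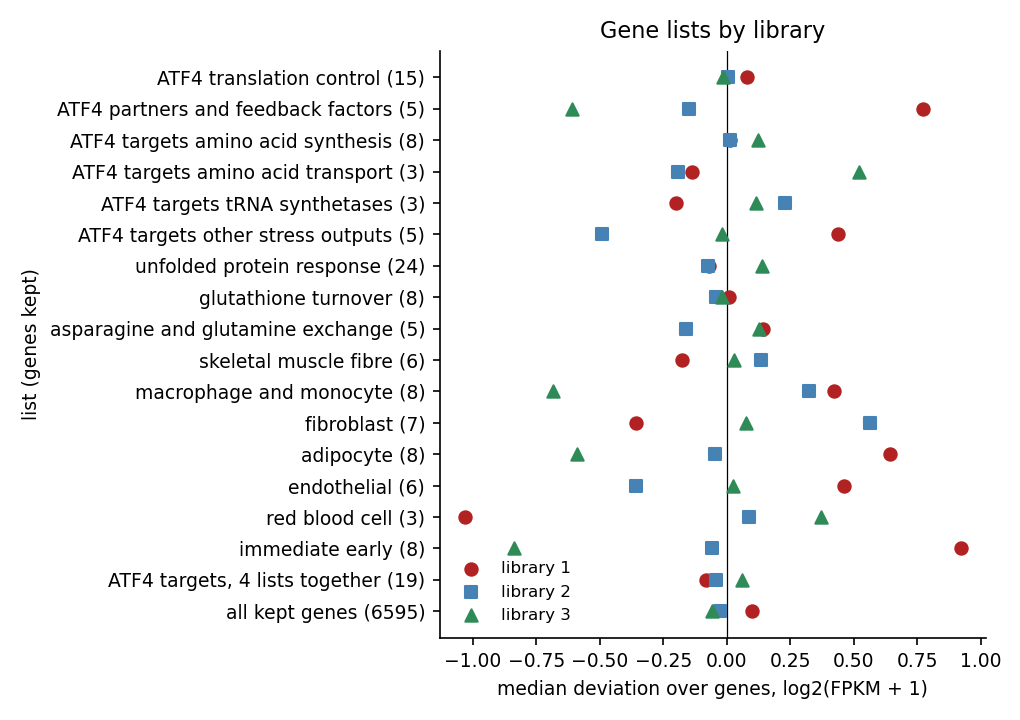
Median deviation of each library from the mean of the 3 libraries in log2(FPKM + 1), for each list with the number of genes kept in brackets; each point is a library. The ATF4 targets together lie at -0.08, -0.04 and 0.06 in libraries 1 to 3, against 0.10, -0.03 and -0.06 over all genes kept. With median-of-ratios scaling, not drawn, the targets gave -0.14, -0.02 and 0.14, against 0.003, -0.003 and 0.018. In library 1 the medians of partner factors (0.77) and immediate early genes (0.92) lie to the right and that of red blood cell genes (-1.03) to the left. The partner factors are split, and 0.77 is the value of CEBPA, which passed the filter through libraries 1 and 2. CEBPB and JDP2 lie farther right, while CEBPG (0.098) and NFE2L2 (0.115) lie near the median of all genes. For red blood cell genes -1.03 is the value of HBBA, with CA2 farther left and TAL1 to the right (0.15).

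Genes whose pattern was most like that of each member were found among 4365 other genes with a mean of at least 5 FPKM, by the root mean square difference of log2(FPKM + 1) centred over the 3 libraries. For CHAC1 the nearest was PTGDS, prostaglandin D2 synthase, at 175, 10.0 and 12.1 FPKM, with a difference of 0.13. AQP4, a water channel, followed at 19.6, 1.05 and 0.959 FPKM (0.17), and then SESN1, a sestrin, at 553, 55.0 and 53.0 FPKM (0.18). FKBP5, a partner of the chaperone HSP90, stood at 76.0, 7.63 and 8.97 FPKM (0.26), and SOCS3, a brake on cytokine signalling, at 52.5, 4.38 and 2.62 FPKM (0.34). No gene lay within 0.1 of CHAC1, while 15 lay that close to ASNS, 266 to XBP1 and 743 to ATF4.

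For ASNS the nearest were TPM2, the beta tropomyosin of the thin filament, at 178, 411 and 414 FPKM (0.039) and SNX3, a sorting nexin, at 68.6, 149 and 148 FPKM (0.048). KYAT1, an aminotransferase that acts on kynurenine and glutamine, stood at 3.21, 8.06 and 7.43 FPKM (0.063). FAHD1, a mitochondrial decarboxylase, and NAP1L4, a histone chaperone, both lay at 0.069. For ATF4 the nearest were RIC8B, MED21 and CSNK2A1, and for XBP1 they were CMPK1, PGAM1 and DNAJC2. With 3 libraries a likeness of pattern is a description, and a flat pattern is shared by many genes.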

How the data were processed

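Per the labels' protocols, Illumina libraries were made from breast muscle mRNA bound to oligo(dT) beads after TRIzol extraction. CASAVA 1.7, Bowtie2 and HTSeq appear in the submitters' processing notes without a stated role; build, annotation and quantifying program are not given in the sources used. The authors deposited 1 value per transcript for 36977 transcripts in each library, treated as FPKM, an inference, since they are fractional and sum to 569361, 586193 and 573648. Read depth is unknown.

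Accessions were matched without their version (13188 of 36977 transcripts, 35.7%), and transcripts were summed per gene. Named genes held 73.4% to 75.7% of the summed value. The filter kept genes that reached 1 FPKM in 2 or more libraries, and log2 values used a pseudocount of 1. Of 16 lists, 2 genes entered through a synonym (CARS, CYR61), and 2 synonyms that led to another gene were left out. Members, lists and rules were chosen with earlier results of these data known. Named genes were the 4 members, each kept gene of the partner, synthesis, transport and stress output lists, and the nearest patterns. Of the other lists, the rule took the 2 highest and the 2 of widest range with a mean of at least 5 FPKM. Cell type and immediate early lists are given mainly by their sums, and some genes that the rule takes there are not named. Genes outside the rule are marked as such where named, or, for CBS, SLC7A11 and SLC1A4, as not passing the filter. No test was run, since there is 1 group and the members were chosen on these values. Alternatives were pseudocount 0.1, no filter, median-of-ratios scaling, curated transcripts, the highest transcript and each library left out. Python 3.11.15, pandas 2.3.3, numpy 2.4.6 and matplotlib 3.10.9 were used.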

Additional observations from a re-analysis of the deposited data

How the results depend on the processing

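Each member has 1 transcript row, so curated transcripts only and the highest transcript gave the same values for the 4 members. Mean levels and mean log2 ratios to ATF4 moved by less than 1 SD under every alternative run on them. Leaving out 1 of 3 libraries cannot move a mean by 1 SD, so nothing is read from those runs. No alternative free to move the ratios was run. Median-of-ratios scaling could move the levels, and gave means of 461, 21.7, 10.8 and 39.1 FPKM for ATF4, CHAC1, ASNS and XBP1. For CHAC1 the SD exceeds the mean, so this says little, and without single libraries its mean lay between 4.18 and 33.2 FPKM. The range of ATF4 was 0.17 with median-of-ratios scaling and 0.034 to 0.11 with single libraries left out. The same left the range of CHAC1 at 0.25 to 3.73, that of ASNS at 0.079 to 1.22 and that of XBP1 at 0.17 to 0.46; the lowest came without library 1 for CHAC1 and ASNS and without library 3 for XBP1. The number of ATF4 targets with a range above 1 was 2 with curated transcripts only, where 12 genes were kept, and 2 to 4 with single libraries left out. Over all genes these counts were 516 of 3774 and 202 to 487, against 923 of 6595, and fewer genes or libraries lower such counts by construction. With pseudocount 0.1, 1362 genes had such a range. No paired analysis was possible because there is only 1 group. Unknown depth leaves counting error unmeasured.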
